A study of Sus scrofa with 6 samples.

Results

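The IER genes (immediate early response) are IER2, IER3, IER5 and IER5L, and all 4 were found by name among the 25149 Ensembl pig genes counted in neonatal pig Sertoli cells (NPSC). IER5L entered by its identifier because it was lower after exposure to human complement in these same libraries, and IER2, IER3 and IER5 entered as its relatives by name. The complement against baseline values of these genes are therefore given as a description, without a test. Immediate early genes are transcribed within minutes of a stimulus from factors the cell already holds, without new protein synthesis, and their messages are usually short-lived. IER2, IER5 and IER5L encode nuclear proteins that share an N-terminal IER domain, while IER3, also called IEX-1, shares the name but is a different protein, a stress-induced regulator of cell survival and a classical target of NF-kB. IER5 is known for bringing the phosphatase PP2A to the heat shock factor HSF1, and IER5L is the least studied of the family.

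Wild type (WT) NPSC came from the testes of Duroc-Landrace males 3 to 5 days old, collected from 3 litters, and were kept as monolayers in DMEM with 10% fetal bovine serum. In baseline NPSC (3 plates) DMEM was added, and in complement NPSC (3 plates) an equal volume of pooled human serum with its complement preserved was added for 90 min. No plate received serum without active complement, so complement and the other contents of human serum cannot be told apart. RNA was sequenced from 1 library per plate. The sources do not say which plate held cells of which litter, so the p-values below measure the spread between plates, which may be technical.

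Reads counted on genes came to between 6796183 and 8371923 in baseline NPSC and between 3641518 and 6403606 in complement NPSC. The 4 IER genes held between 2549 and 2907 of these reads per baseline library and between 2735 and 6708 per complement library. Levels are given as CPM, the read count scaled to the TMM-normalized size of its library. Reads on 48 olfactory receptor genes, receptors of the nose used here as a gauge of reads that do not come from messages of the testis, had a density of 1.18 to 2.15 CPM per kb of exon in baseline NPSC and of 4.01, 4.43 and 1.51 in complement replicates 1, 2 and 3. Markers of Sertoli cells, the cells that nurse the germ cells in the testis, were present in every library, among them SOX9, WT1 and GATA4. Of 9 such markers tested, 5 (WT1, GATA4, INHA, CLDN11 and CLU) were lower in every complement NPSC library than in any baseline NPSC library, against 8.14% of all tested genes, while DHH and DMRT1 had log2 fold changes of 0.63 and 0.12. The summed level of the list, most of it from CLU (means of 4694 and 2634 CPM), was 5006 to 7729 CPM in baseline NPSC and 3278 to 3913 CPM in complement NPSC. Of the 3 Leydig cell markers tested, 3 were lower in the same way, with sums of 936 to 1139 and 713 to 760 CPM and with CYP11A1 at 0 counts in every library. The sums of the peritubular myoid (MYH11 at 0 counts), macrophage, endothelial and germ cell markers had overlapping ranges. A row at 0 counts in every library does not tell a gene without messages from a gene model on which reads were not counted.

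IER5L (ENSSSCG00000005673) was the lower member. It lies on the minus strand of chromosome 1 from 303470306 to 303471521 in the coordinates of the files, whose genome build is not given in the sources used here. The 3 baseline NPSC libraries had 45.8, 43.8 and 58.0 CPM, from 316, 283 and 440 reads. Its levels in complement NPSC were 16.0, 21.0 and 24.1 CPM, from 72, 88 and 139 reads. The highest complement NPSC library thus stood below the lowest baseline NPSC library. The exact 95% Poisson intervals, which cover counting error only, reached down to 38.9 CPM in the lowest baseline library and up to 28.5 CPM in the highest complement library.

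Baseline NPSC averaged 49.2 ± 7.67 CPM of IER5L (SD, n = 3), and complement NPSC averaged 20.4 ± 4.09 CPM (SD, n = 3), which is 2.41 times lower. The log2 fold change was −1.27 (SE 0.22, 95% interval −1.72 to −0.81). Over the 9 pairs of a complement NPSC and a baseline NPSC library the log2 ratio ran from −1.86 to −0.86. Among the 17512 genes tested, IER5L was rank 16 from the lowest log2 fold change. In bulk RNA, fewer cells of a type and less RNA per cell cannot be told apart, and the lower sums of the Sertoli and Leydig cell markers go in the same direction as IER5L. Their part in the lower level of IER5L was not tested. Multiplying its exon length by the density on olfactory receptors gave an expected background of 2.73% to 5.61% of the IER5L reads in baseline NPSC and of 26.5%, 22.2% and 8.43% in complement replicates 1, 2 and 3. With this background subtracted the log2 fold change was −1.24. That fit scaled the remaining counts anew over 15077 genes, so −1.24 does not show the effect of the subtraction alone. In the same fit IER2, IER3 and IER5 had 0.65, 1.73 and 0.28, each higher than without subtraction. With the olfactory receptor density as a covariate IER5L had −1.04.

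IER3 (ENSSSCG00000027607) was the higher member and the most abundant. It lies on the minus strand of chromosome 7 from 26987521 to 26988891. The baseline NPSC libraries had 299, 232 and 209 CPM, and the complement NPSC libraries had 493, 607 and 995 CPM. All 3 complement libraries were above all 3 baseline libraries, with complement replicate 3 far above the other two. The means were 246.5 ± 47.1 CPM (SD, n = 3) and 698 ± 263 CPM (SD, n = 3), a ratio of 2.83. The log2 fold change was 1.5 (SE 0.30, 95% interval 0.86 to 2.15), rank 190 from the highest of all tested genes.

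The 2 libraries with the highest olfactory receptor density, complement replicates 1 and 2, had the lowest IER3 levels of complement NPSC. Expected background was at most 0.907% of the IER3 reads in any library. Without complement replicate 3 the log2 fold change of IER3 was 1.13, the lowest value of any setting.

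IER2 (ENSSSCG00000013753), on the minus strand of chromosome 2 from 66211129 to 66211794, encodes a nuclear protein that is induced by growth factors. It had 56.4, 89.3 and 58.5 CPM in baseline NPSC and 68.8, 80.9 and 120.0 CPM in complement NPSC. The groups overlapped: baseline replicate 2 lay above complement replicates 1 and 2. The means were 68.1 ± 18.4 CPM (SD, n = 3) and 89.9 ± 26.8 CPM (SD, n = 3), and the log2 fold change was 0.40 (SE 0.24, 95% interval −0.11 to 0.92). It was 0.11 without complement replicate 3, and 0.63 without baseline replicate 2. With the olfactory receptor density as a covariate it was 0.84.

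IER5 (ENSSSCG00000015541), on the plus strand of chromosome 9 from 134670288 to 134671264, had 20.0, 29.9 and 33.3 CPM in baseline NPSC. In complement NPSC it had 30.9, 28.6 and 26.2 CPM, all inside the range of the baseline libraries. The means of 27.7 ± 6.92 CPM (SD, n = 3) and 28.6 ± 2.35 CPM (SD, n = 3) differed by less than either SD. The log2 fold change was 0.04 (SE 0.23, 95% interval −0.44 to 0.52). Its sign changed in 4 of 15 alternative settings, among them DESeq2's Wald test at −0.02 and the fit without baseline replicate 1 at −0.16.

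Of the 4 genes, IER3 was higher and IER5L was lower without overlap between the groups, and IER2 and IER5 overlapped. Over all tested genes 8.95% were higher and 8.14% lower in this way, 17.1% in all. Since the members were chosen with this contrast known, nothing is read from these counts.

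**Figure D1:**
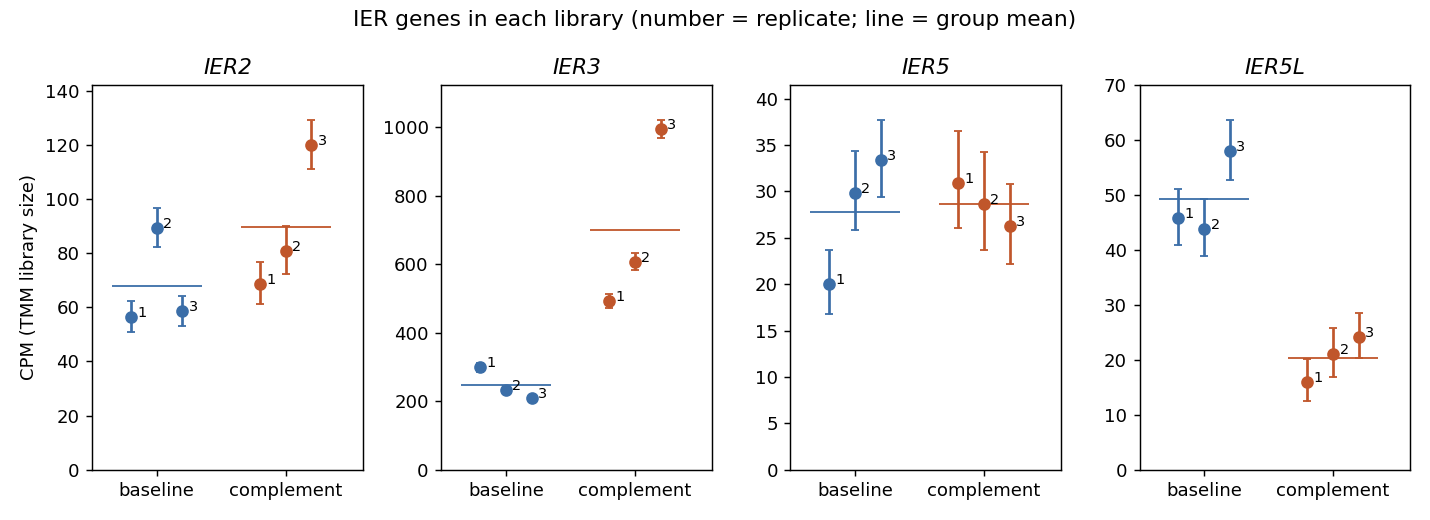
Level of each IER gene in each library in CPM (vertical axis, starting at 0, with its own scale per gene), for 3 baseline NPSC (blue) and 3 complement NPSC libraries (orange), with exact 95% Poisson intervals of the counts and the group mean as a line. IER3 is higher in all complement libraries (493 to 995 against 209 to 299 CPM), IER5L is lower in all of them (16.0 to 24.1 against 43.8 to 58.0 CPM), and the groups overlap for IER2 and IER5.

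The spread between plates also differed among the 4 genes. IER5 varied least of them in complement NPSC, with an SD of log2 CPM of 0.12, below which 9.09% of all tested genes lay, but in baseline NPSC its SD was 0.38, above 70.0% of the genes. For IER3 the SD was 0.27 among baseline and 0.52 among complement libraries, the latter above 77.6% of the genes. IER5L had 0.22 and 0.30, both below the medians of all tested genes of 0.26 and 0.33. IER2 had 0.37 and 0.41. With 3 plates per group these SDs are themselves imprecise, and their differences were not tested.

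Levels of different genes are compared per kb of the exon length that the files list. In baseline NPSC the order was IER3 at 193 ± 36.9 CPM per kb (SD, n = 3), IER2 at 102 ± 27.7, IER5L at 40.6 ± 6.33 and IER5 at 28.5 ± 7.09. Every baseline library had this order. The ranges of the neighbours IER3 (164 to 235 CPM per kb) and IER2 (84.7 to 134) did not overlap, nor did those of IER5L (36.1 to 47.8) and IER5 (20.5 to 34.2), although these last came within 2 CPM per kb of each other. In complement NPSC the lower ranks were exchanged, with IER3 at 548 ± 206 CPM per kb (SD, n = 3), IER2 at 135 ± 40.2, IER5 at 29.3 ± 2.41 and IER5L at 16.8 ± 3.38. All 3 complement libraries had this second order.

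The models behind these lengths are short. IER2 is listed as a single block of 666 bp. IER5 is listed as blocks of 39 and 936 bp with a gap of 2 bp, and IER5L as blocks of 768 and 444 bp with a gap of 4 bp, far shorter than a spliced intron. IER3 has blocks of 943 and 332 bp with an intron of 96 bp. The listed lengths of all 4 genes (666, 1275, 975 and 1212 bp) are multiples of 3, and the files mark no UTR, so reads from UTR that a model leaves out were not counted and the levels per kb hold for the listed models only.

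Ratios between members within a library do not depend on how libraries are scaled. The ratio of IER5 to IER5L per kb was 0.543, 0.848 and 0.715 in the baseline libraries, and it was 2.40, 1.70 and 1.35 in the complement libraries. It was below 1 in every baseline library and above 1 in every complement library. IER3 stood at 6.21, 5.03 and 3.42 times IER5L in baseline NPSC. In complement NPSC it stood at 29.2, 27.5 and 39.2 times IER5L, a mean difference of 2.73 on the log2 scale between the groups. IER2 stood at 2.24, 3.71 and 1.84 times IER5L in baseline NPSC, and at 7.81, 7.01 and 9.05 times in complement NPSC. IER5L was chosen for its lower level in these complement libraries, so every ratio to it carries that choice and is no further evidence on the other member.

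The ratio of IER2 to IER5 did not separate the groups, with 2.57 to 4.38 in baseline NPSC and 3.25 to 6.70 in complement NPSC. IER3 stood at 4.79 to 11.4 times IER5 in baseline NPSC and at 12.2 to 29.0 times in complement NPSC, where the highest baseline and the lowest complement value nearly met. IER5L made up 10.9%, 11.1% and 16.2% of the reads on the 4 genes in baseline NPSC, and it made up 2.63%, 2.85% and 2.07% in complement NPSC. IER3 made up 58.2% to 71.0% and 81.0% to 85.4%.

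**Figure D2:**
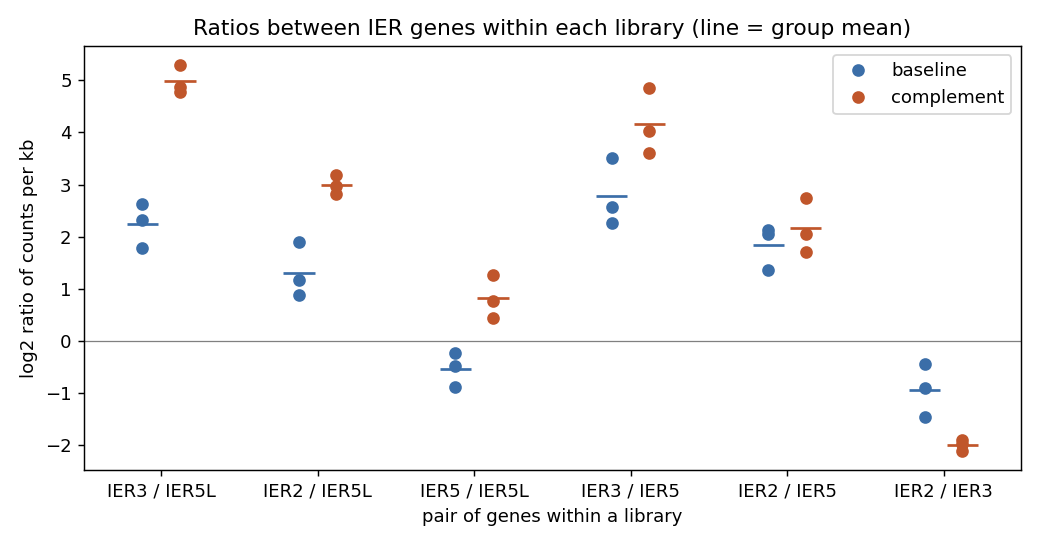
Log2 ratio of read counts per kb for each pair of IER genes within each library (points; lines are group means), for baseline NPSC (blue) and complement NPSC (orange). The groups overlap for IER2 to IER5 and lie apart for the other pairs, of which the 3 ratios to IER5L carry the choice of IER5L for its lower level.

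The other immediate early genes place the family among its peers. Of a list of 40 immediate early genes, 24 were matched by name and tested. The others, BTG2 among them, are not analysed here, so every count and rank below holds for the matched genes alone. By edgeR's quasi-likelihood test, with an adjusted p under 0.05 and a change beyond 1 on the log2 scale, 6 rose (GEM, JUNB, EGR1, EGR3, NR4A2 and NR4A3) and 0 fell. Over all tested genes 0.103% passed these thresholds, 0.0914% higher and 0.0114% lower. In 13 of the 24 every complement NPSC library was above every baseline NPSC library, against 8.95% of all tested genes. An unadjusted p under 0.05 was found for 13, against 15.2% of all tested genes, and DESeq2 called 6, against 0.333% of the genes it tested. The list includes genes that the study picked on these libraries, so its count is not independent evidence. Its median log2 fold change was 0.59 against 0.02 for all tested genes, and 21 of 24 values were above 0. The lowest value was −0.30, for KLF4. IER5L, which was chosen for its lower level in this contrast, was lower than all 24.

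By level in baseline NPSC per kb, IER3 ranked 3 of these 28 immediate early genes (24 and the 4 IER genes), behind the matricellular protein genes CCN2 and CCN1. IER2 ranked 6, next to JUNB, a subunit of AP-1. IER5L ranked 16 and IER5 ranked 20. In complement NPSC IER3 stayed at rank 3, IER2 was at 9, IER5 at 22 and IER5L at 25. By log2 fold change IER3 was rank 4 of these 28 matched genes, after NR4A3, EGR3 and EGR1 and just before JUNB, and IER2, IER5 and IER5L were ranks 17, 23 and 28. The last rank of IER5L carries its choice for a lower level.

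NR4A3, an orphan nuclear receptor gene, had the largest log2 fold change of the list at 2.97 (SE 0.25, adjusted p = 7.27e-05 by edgeR), from 24.0 to 188 CPM on average. EGR3, a zinc finger transcription factor gene, had 2.06 (SE 0.29, adjusted p = 0.00963, edgeR), and these 2 genes kept their calls in all 15 alternatives. JUNB (1.43, SE 0.25, adjusted p = 0.0455, edgeR), EGR1 (2.02, SE 0.36, adjusted p = 0.0455, edgeR), NR4A2 (1.21, SE 0.21, adjusted p = 0.0434, edgeR) and GEM (1.30, SE 0.23, adjusted p = 0.0493, edgeR) were called in 11 of 15 alternatives each. Without baseline replicate 2 the number of called genes of the list was 2, where 9 of all 18254 tested genes were called. It was 3 without baseline replicate 3 (15 of all 18283) and 3 without complement replicate 1 (12 of all 17725). CCN1 and CCN2, the most abundant of the list, had log2 fold changes of 0.55 (SE 0.36, adjusted p = 0.428) and 0.26 (SE 0.36, adjusted p = 0.694) by edgeR. FOS, the partner of JUN in AP-1, was at 152 CPM on average in both conditions.

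NF-kB targets were listed because IER3 is a target of NF-kB. Of 21 genes 16 were matched by name and tested, and the others (RELB, TNFAIP2, CCL20, SELE and SOD2) are not analysed here. All 16 had a log2 fold change above 0, with a median of 0.86, and in 14 of them every complement NPSC library was above every baseline NPSC library, against 8.95% of all tested genes. CXCL2, a neutrophil chemokine gene, was the only one of these 16 to rise in edgeR's adjusted test, with 1.79 (SE 0.28, adjusted p = 0.0180), a call it kept in all 15 alternatives, where 0.0914% of all tested genes rose. DESeq2 called 4, against 0.333% of the genes it tested, and 13 had an unadjusted p under 0.05 in edgeR's test, against 15.2% of all tested genes. Genes of this list were also picked by the study on these libraries. The 3 most abundant members, CCL2, NFKBIA and NFKBIZ, had log2 fold changes of 0.95 (SE 0.26), 1.33 (SE 0.30) and 1.36 (SE 0.31), with an adjusted p between 0.176 and 0.261 by edgeR.

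**Figure D3:**
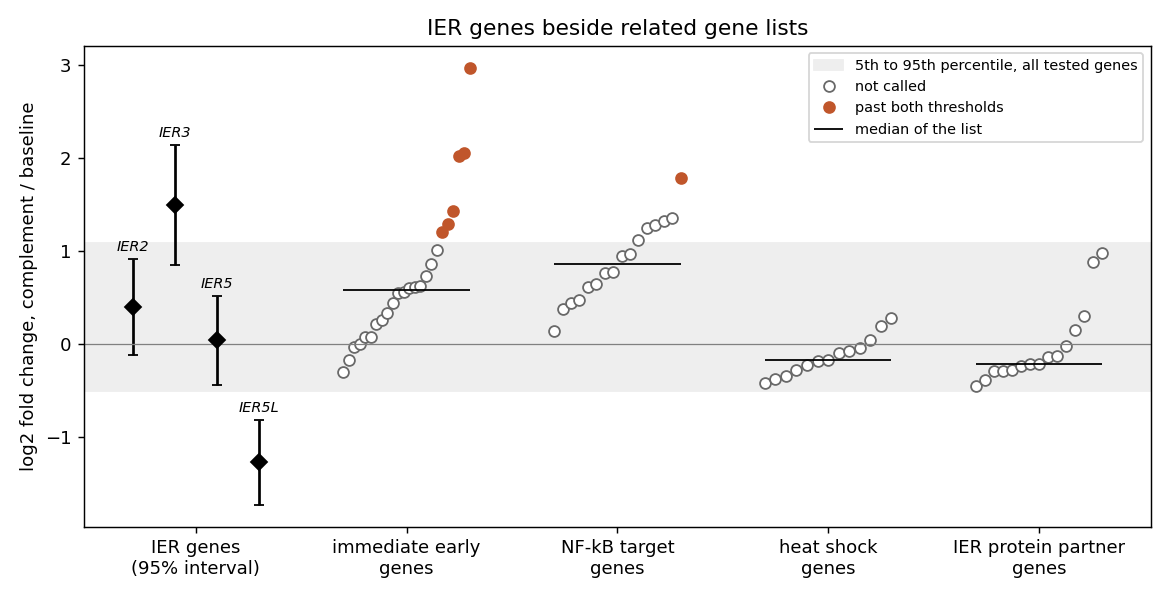
Log2 fold change of complement against baseline NPSC (vertical axis) for the IER genes (diamonds with 95% intervals) and for each tested gene of 4 lists (circles; filled where past both thresholds of edgeR's test; lines are list medians), over a grey band from the 5th to the 95th percentile of all tested genes (−0.50 to 1.08). IER5L, chosen for its lower level in this contrast, lies below all tested genes of the 4 lists.

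Heat shock genes were listed because IER5 acts on HSF1, their activator. None of the 13 genes tested of 20 was called in edgeR's test or by DESeq2, where 0.103% and 0.333% of all genes were, so a count of 0 sets the list apart from other genes in neither. None had an unadjusted p under 0.05, against 15.2% of all tested genes. The log2 fold changes ran from −0.41 (HSP90AA1, a cytosolic chaperone) to 0.28 (HSPB8, a small heat shock protein), with overlapping groups in all 13, where 17.1% of all tested genes did not overlap. The median was −0.17, and it was 0.08 with expected background subtracted, 0.26 with the density covariate and 0.04 without complement replicate 1. In these settings the median of all genes, which normalization holds near 0, moved by about 0.02 at most. The medians of the other lists rose in them too. With background subtracted they were 0.83 for immediate early genes, 1.09 for NF-kB targets and −0.03 for IER protein partners. The shift was thus not particular to heat shock genes. HSF1 itself had 104 CPM in baseline NPSC and 85.5 CPM in complement NPSC (log2 fold change −0.28, SE 0.21, adjusted p = 0.485, edgeR). The row for HSPA1A and HSPA1B, which encode the inducible HSP70, was listed at 0 counts and was not tested. The most abundant members were HSP90AB1 at −0.34 (SE 0.33), HSP90AA1 and HSPA4 at −0.18 (SE 0.25).

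Partners of IER proteins include the subunits of PP2A, a serine and threonine phosphatase bound by IER2, IER3 and IER5, and the ATPase inhibitor ATP5IF1. The phosphatase gene CDC25B was listed with them, without a claim here that its protein binds an IER protein. Of the 17 listed genes 15 were tested and 0 were called by edgeR or by DESeq2. Over all genes 0.103% and 0.333% were called, shares at which 0 of 15 does not set the list apart. There were 2 at an unadjusted p under 0.05 in edgeR's test, where 15.2% of all tested genes had one. The median log2 fold change was −0.21, and it was 0.13 with the density covariate. PPP2R1A, the scaffold subunit and the most abundant of the list, had 411 and 315 CPM (−0.38, SE 0.25, adjusted p = 0.438, edgeR). The catalytic subunit PPP2CB had −0.28 (SE 0.24). In 2 of the 15, against 8.95% of all tested genes, every complement NPSC library was above every baseline NPSC library, the regulatory subunits PPP2R2B at 0.99 (SE 0.31, adjusted p = 0.267) and PPP2R2C at 0.89 (SE 0.38, adjusted p = 0.307) by edgeR, and in none was every one below, against 8.14%.

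The genes next to the members on the chromosome did not pass the test. No listed gene overlaps an IER gene in the files. IER5L lies 22593 bp from PTPA, which encodes an activator of PP2A, and the mean level of PTPA went from 98.3 ± 18.7 to 76.6 ± 6.14 CPM (SD, n = 3 each) between baseline and complement NPSC (log2 fold change −0.36, SE 0.20, adjusted p = 0.375, edgeR). On its other side NTMT1, an N-terminal methyltransferase gene 215789 bp away, had −0.30 (SE 0.18, adjusted p = 0.412, edgeR). IER3 lies 445 bp from FLOT1, the gene of a membrane raft protein on the same strand, which had 69.2 and 62.1 CPM (−0.15, SE 0.18, adjusted p = 0.635, edgeR). Beside IER2 lie CACNA1A at 0.55 (SE 0.21, adjusted p = 0.287) and STX10 at −0.17 (SE 0.25, adjusted p = 0.699), and beside IER5 lie MR1 at 0.59 (SE 0.34, adjusted p = 0.392) and CACNA1E at 0.53 (SE 0.19, adjusted p = 0.281), all by edgeR. The unnamed gene ENSSSCG00000031036 on the far side of IER3 had 1.02 (SE 0.64, adjusted p = 0.417, edgeR) from 71 reads in all.

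Likeness of pattern was measured over the 6 libraries as the root mean square difference of log2 CPM, each gene centred on its own mean, among 11050 named genes. FOSL1, the gene of the AP-1 subunit FRA1, was most like IER2 at 0.05, where the median over all tested genes was 0.50. STX11 and IFRD1 came next at 0.10 and 0.11. The likeness of FOSL1 to IER2 covers the high baseline replicate 2 and the high complement replicate 3. IER3 was most like HAS2, a hyaluronan synthase gene, at 0.17, MAMDC2 at 0.18 and GEM, a small GTPase gene, at 0.22, against a median of 0.86. As their choice by pattern implies, each of them had a higher mean level in complement NPSC, for HAS2 15.9 and 36.9 CPM. MAMDC2 was low, with means of 0.58 and 2.14 CPM.

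IER5L had no gene as close, with PMCH at 0.24, POLR2F, a subunit gene of the RNA polymerases, at 0.24 and THAP11 at 0.27, against a median of 0.72. THAP11, the gene of a zinc finger transcription factor, averaged 52.0 ± 8.60 CPM in baseline and 30.8 ± 4.21 CPM in complement NPSC (SD, n = 3 each; log2 fold change −0.76, SE 0.20, adjusted p = 0.261, edgeR). IER5 was most like ACADSB at 0.05, CEP63 at 0.07 and NANS at 0.07, against a median of 0.40. A small distance between genes with little change is common, since small values are close to each other.

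**Figure D4:**
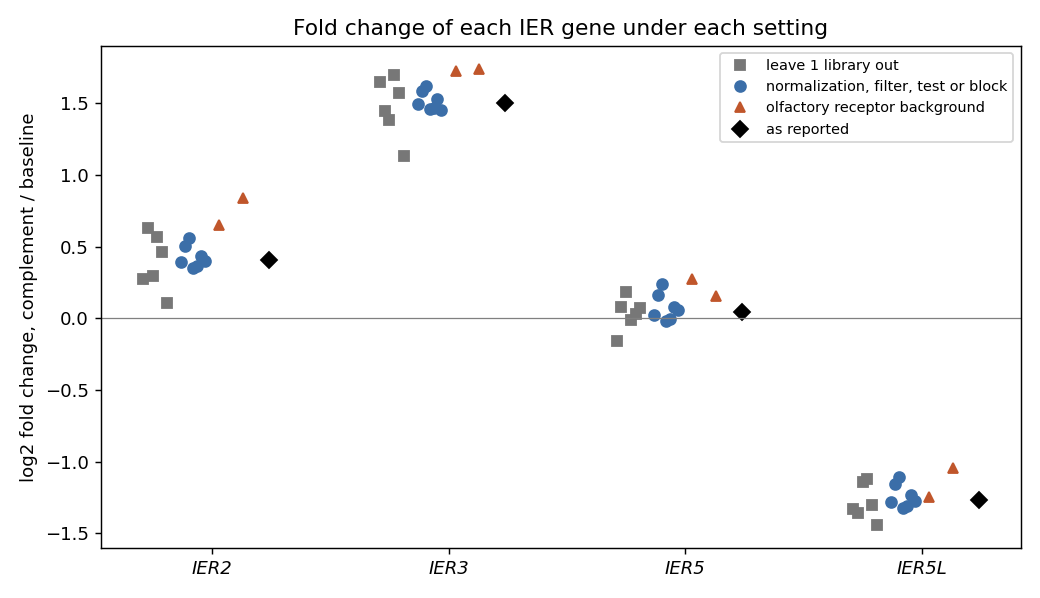
Log2 fold change of each IER gene (vertical axis) as reported (diamond), with 1 library left out (squares), with another normalization, filter, test or replicate block (circles) and with the olfactory receptor background subtracted or as a covariate (triangles). IER3 stays between 1.13 and 1.74 and IER5L between −1.44 and −1.04, IER2 runs from 0.11 to 0.84, and IER5 lies on both sides of 0.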

How the data were processed

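Total RNA of 3 baseline NPSC and 3 complement NPSC plates was sequenced by a service. The authors deposited raw counts per Ensembl gene, without normalization; per the labels' processing notes, Trimmomatic 0.36, STAR 2.5.2b and featureCounts of Subread 1.5.2 were used. Genome build, annotation release and strand setting are not given in the sources used here. Groups follow the sample titles. Symbols came from Ensembl and RefSeq name tables, which named 11804 of 25149 genes.

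Genes were kept with filterByExpr (17512 genes), normalized by TMM and tested with edgeR 4.0.16 in R 4.3.3 (glmQLFit, glmQLFTest) and p-values were adjusted over all of them by Benjamini-Hochberg. Calls needed an adjusted p under 0.05 together with a change beyond 1 on the log2 scale, a pair of thresholds the study gives. The study used the Wald test of DESeq2, which was run as an alternative (DESeq2 1.42.0). Log2 CPM used a prior count of 2. Intervals are 95%. The alternatives were other normalizations and filters, a replicate block, leaving out each library, subtraction of an expected background (exon length times the olfactory receptor density) and that density as a covariate. The fits were tested on simulated counts. Libraries of a group differed by more than sampling noise. Members, lists and tests were chosen with earlier results of these data known. The genes named are the members, their nearest neighbours, the 3 most similar named genes, and from each list its called genes and its 3 most abundant (1 of these is not reported here); list members at the ends of the range, HSF1, FOS, PPP2R2B, PPP2R2C, DHH and DMRT1 were named after their values were seen. Plots used matplotlib 3.10.9 in Python 3.11.15.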

Additional observations from a re-analysis of the deposited data

How the results depend on the processing

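Over 15 alternatives each, the log2 fold change of IER3 stayed between 1.13 and 1.74 and that of IER5L between −1.44 and −1.04. That of IER2 stayed above 0, from 0.11 to 0.63 with 1 library left out and at 0.84 with the density covariate, and that of IER5 ran from −0.16 to 0.18 with 1 library left out. The complement NPSC level of IER5 was 32.6 CPM per kb after subtraction of the expected background. Upper-quartile normalization moved the median of all genes up by 0.11 and scaling by library totals by 0.18 (log2); the same 2 IER genes were free of overlap in each setting in which overlap was counted.

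The number of genes past the thresholds was 18 as reported, 28 by library totals (28 higher and 0 lower), 53 with DESeq2 (40 higher and 13 lower), 31 with no filter and 31 after background subtraction, 58 with the covariate, and 9 (without baseline replicate 2) to 1063 (without complement replicate 3) with 1 library left out. Immediate early genes past them numbered 3 with DESeq2 size factors, where 15 of all genes passed. With 1 library left out they ran from 2 (without baseline replicate 2, 9 of all genes) to 7 (without baseline replicate 1, 298 of all genes). NF-kB target genes numbered 5 by library totals, 4 with DESeq2, 5 after background subtraction and 8 with the covariate. With 1 library left out they ran from 1 (as without baseline replicate 2) to 3 (as without baseline replicate 1). Genes of IER protein partners numbered 0 to 1 with 1 library left out, the 1 without complement replicate 3. The causes were not tested.

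A replicate block, which pairs libraries of the same number, gave 728 genes, of them 6 NF-kB target genes. The labels do not say that a number marks a shared litter or day. The correlations of the deviations of same-numbered libraries were 0.46, 0.03 and 0.48, and not every library correlated best with its own number, so the numbers were not taken as pairs. Depth adds counting error to IER5L in complement NPSC (72 to 139 reads per library) and to IER5 in both groups (120 to 253 reads). For IER5 in baseline NPSC the plates differed beyond counting error. The Poisson intervals of baseline replicate 1 (16.8 to 23.6 CPM) and baseline replicate 2 (25.8 to 34.4 CPM) did not meet. Those of IER5L in complement replicate 1 (up to 20.2 CPM) and complement replicate 3 (from 20.3 CPM) just missed each other.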
